A study of Mus musculus with 4 samples.

Results

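The genes described here are 9 genes that mark periodontal ligament and tendon in the mouse: the transcription factor genes Scx and Mkx, the membrane protein gene Tnmd, and the genes of the secreted matrix proteins Postn, Tnc, Tnn, Thbs2, Thbs4 and Cilp. They were chosen by symbol, and all 9 were found among the 55487 gene IDs of the deposited count table. RNA had been taken from cells of the lower incisor of C57 mice at postnatal day 30, sorted as CD45-Ter119-Tie2- and named dental progenitors (tissue: dental pulp). The 2 knockout libraries came from Ptipf/f;Sp7-cre mice and the 2 control libraries from Ptipf/f mice. Both groups thus carried floxed alleles of Ptip (gene symbol Paxip1), and the Cre, driven by Sp7, a gene of bone-forming and dentin-forming cells, was present in the knockouts alone, so loss of Ptip and presence of Cre cannot be told apart. Whether the cells that express the 9 genes carried the Cre is not stated in the labels, nor is the number of mice behind a library.

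The periodontal ligament is the fibrous tissue that ties the tooth root to the jaw bone, and tendon ties muscle to bone. Both are built of collagen fibres made by fibroblasts. Scleraxis (Scx) and Mohawk (Mkx) are transcription factors that promote the tendon and ligament program, and tenomodulin (Tnmd) is a membrane protein of mature tendon cells downstream of scleraxis. Periostin, the tenascins and the thrombospondins are matricellular proteins: they bind collagen, fibronectin and integrins rather than form the bulk of the fibre. Periostin, encoded by Postn, and tenascin W, encoded by Tnn, are also made by periosteum and bone-forming cells, so their RNA alone does not mark ligament. The sort did not select ligament cells, and the description below is of the genes, not of a ligament cell population.

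Promoters, taken as 250 bases before to 50 bases after the transcription start, were listed for 7 of the 9 genes in RefSeq (GRCm38.p6). Those of 5 genes are shown because these genes make up the 2 patterns of the data: Tnc, Cilp and Thbs4 had the smallest p-values between genotypes among the 9 genes, and Tnn and Postn differed most between the libraries of a group in the same direction in both groups. Capitals mark CANNTG, the E-box to which factors of the class of scleraxis bind. This motif reads the same on both strands, and at least 1 copy was present in 72.31% of 32851 promoters of the same length. The Tnc promoter (chr4:64046966-64047265, minus strand), the Cilp promoter (chr9:65264930-65265229, plus strand) and the Thbs4 promoter (chr13:92794769-92795068, minus strand) held 3, 3 and 2 copies. The Tnn promoter (chr1:160153526-160153825, minus strand) and the Postn promoter (chr3:54360857-54361156, plus strand) held 0 copies each, which says only that these letters are not in this window. The copies did not split by pattern over the promoters not shown. That of Thbs2, higher in library 2 of each group as Tnn and Postn were, held 2 copies. That of Tnmd, lower in both knockouts, held 0. A link between copies and levels was not tested.
Tnc: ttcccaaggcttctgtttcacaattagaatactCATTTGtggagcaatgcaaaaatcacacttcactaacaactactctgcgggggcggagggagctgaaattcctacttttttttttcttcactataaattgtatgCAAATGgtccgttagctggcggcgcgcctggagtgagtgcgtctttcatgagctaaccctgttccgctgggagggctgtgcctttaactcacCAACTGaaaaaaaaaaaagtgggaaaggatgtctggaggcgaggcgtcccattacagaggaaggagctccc
Cilp: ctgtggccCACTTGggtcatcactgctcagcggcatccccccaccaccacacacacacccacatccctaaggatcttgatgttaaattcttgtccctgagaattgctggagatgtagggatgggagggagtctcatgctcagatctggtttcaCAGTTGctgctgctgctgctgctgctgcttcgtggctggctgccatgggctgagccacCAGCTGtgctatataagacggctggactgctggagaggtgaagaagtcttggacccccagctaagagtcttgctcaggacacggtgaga
Thbs4: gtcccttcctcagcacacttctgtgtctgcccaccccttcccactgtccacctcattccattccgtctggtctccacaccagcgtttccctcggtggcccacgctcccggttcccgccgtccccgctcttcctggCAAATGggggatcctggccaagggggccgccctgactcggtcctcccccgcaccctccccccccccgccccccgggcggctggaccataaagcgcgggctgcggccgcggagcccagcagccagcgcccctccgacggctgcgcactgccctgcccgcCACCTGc
Tnn: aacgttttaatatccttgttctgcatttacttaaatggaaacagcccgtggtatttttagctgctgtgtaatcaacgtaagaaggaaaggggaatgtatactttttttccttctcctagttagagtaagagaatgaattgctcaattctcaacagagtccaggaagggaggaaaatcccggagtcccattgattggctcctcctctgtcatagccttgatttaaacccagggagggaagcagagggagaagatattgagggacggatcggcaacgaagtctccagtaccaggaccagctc
Postn: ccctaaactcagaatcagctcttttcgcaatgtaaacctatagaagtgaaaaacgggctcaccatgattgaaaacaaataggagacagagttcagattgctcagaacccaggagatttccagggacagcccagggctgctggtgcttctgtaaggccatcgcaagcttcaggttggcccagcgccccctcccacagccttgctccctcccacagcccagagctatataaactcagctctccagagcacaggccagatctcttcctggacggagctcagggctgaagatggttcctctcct

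The libraries held 15154246 to 19142757 counts, and libraries of a group differed far beyond sampling noise. Levels are given as CPM, a gene's counts relative to the size of its library, with library sizes scaled by the TMM method. The targeted gene Paxip1 had 5.69 and 3.98 CPM in knockouts 1 and 2, against 28.3 and 44.3 CPM in controls 1 and 2, lower in both knockouts (DESeq2 adjusted p = 9e-06; edgeR adjusted p = 0.150). The Cre driver Sp7 had 131 and 146 CPM in the knockouts, against 43.9 and 60.7 CPM in the controls. The sort had no gate against dental epithelium, and the enamel protein gene Ambn had 285507 to 756273 counts per library. Over tested genes, log2 CPM correlated at 0.903 between the knockouts, at 0.870 between the controls and at 0.768 to 0.885 between groups, and knockout 1 was closer to control 2 than the controls were to each other. In these bulk samples, fewer cells of a type and less RNA per cell cannot be told apart. The labels do not say whether libraries of a group came from separate animals. The p-values set the group difference against the spread between these libraries, partly pooled over genes, and that spread may be technical in part.

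All 9 genes were tested. In 5 of them (Tnc, Cilp, Thbs4, Scx and Tnmd) each knockout lay below each control, as in 24.9% of all 17128 tested genes. Mkx was the 1 gene with each knockout above each control, as in 25.8% of all tested genes. In Postn, Tnn and Thbs2 the groups overlapped. The median log2 fold change of the 9 genes was -0.77, against 0.0024 over all tested genes. None of the 9 passed edgeR's quasi-likelihood test at an adjusted p of 0.05, and neither did any other gene (0 higher and 0 lower, 0% of those tested). At an unadjusted p under 0.05 edgeR gave 3 of the 9 genes, all lower (Tnc, Cilp and Thbs4), beside 1694 lower and 1254 higher genes among the 17128 tested. DESeq2 called the same 3 genes lower and 0 higher at an adjusted p of 0.05, where it called 5.69% of 17378 genes lower and 2.72% higher.

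**Figure D1:**
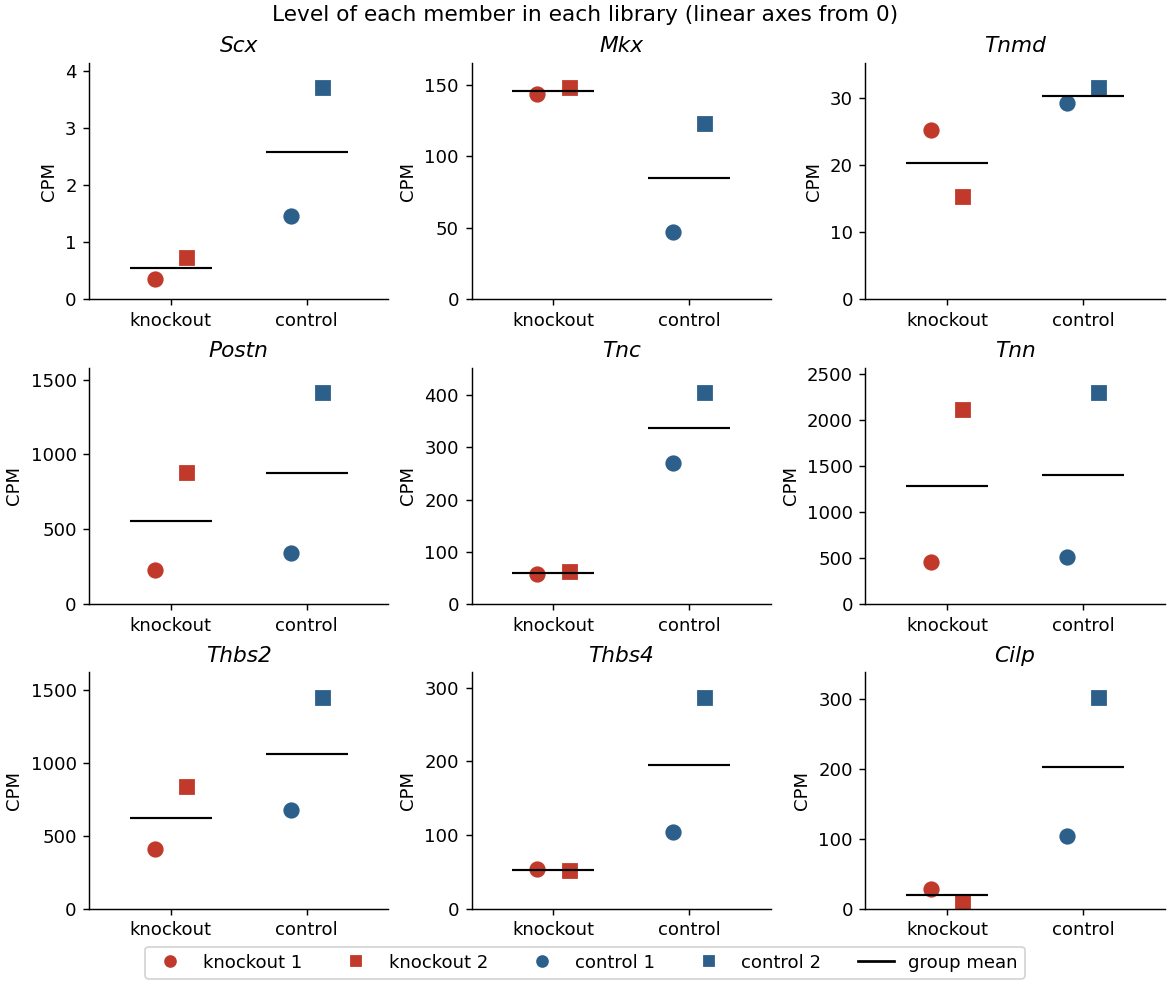
Level of each of the 9 genes in CPM (vertical axes, linear from 0) in the knockout libraries (red) and the control libraries (blue), where circles are libraries 1, squares are libraries 2 and the black line is the group mean. In Tnc, Cilp, Thbs4, Scx and Tnmd both red points lie below both blue ones, in Mkx they lie above, and in Postn, Tnn and Thbs2 the squares lie above the circles in both groups.

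Of the transcription factors, Scx was barely detected and Mkx was plainly expressed. Scx (ENSMUSG00000034161, chromosome 15, 76457452 to 76459458, plus strand, GRCm38) is the factor by which tendon progenitors are usually recognised. It had 7 and 13 counts in knockouts 1 and 2, against 21 and 58 counts in controls 1 and 2. In CPM this was 0.359 and 0.729 in the knockouts and 1.46 and 3.69 in the controls. The groups did not overlap, and the fitted level was 4.70-fold lower in the knockout (log2 fold change -2.23, SE 1.09, edgeR adjusted p = 0.358), with few counts behind it. Mkx (ENSMUSG00000061013), which sustains collagen production in tendon cells, had 143 and 148 CPM in the knockouts, against 47.5 and 123 CPM in the controls. The knockouts differed little from each other, and control 2 lay near them while control 1 lay far below. The level was 1.71-fold higher in the knockout (log2 fold change 0.77, SE 0.48, edgeR adjusted p = 0.475). The log2 fold change was 1.57 without control 2 and 0.21 without control 1, so that either control alone gave a different size. In DESeq2 without control 2, a setting chosen after the data were seen, Mkx was called higher (log2 fold change 1.58, adjusted p = 0.0187).

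Tnmd, the membrane protein gene, had the smallest difference among the genes whose groups did not overlap. It lies on chromosome X from 133850980 to 133865577 on the plus strand (ENSMUSG00000031250). Its level was 25.3 and 15.3 CPM in the knockouts, against 29.3 and 31.5 CPM in the controls. The controls were nearly level, and knockout 1 lay just below them. The log2 fold change was -0.58 (SE 0.42, edgeR adjusted p = 0.542), and -0.26 without knockout 2. Tnmd was detected with 273 counts or more in every library.

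The tenascins parted. Tnc (ENSMUSG00000028364, chromosome 4, 63959785 to 64047015, minus strand) encodes tenascin C, which appears in tendon, ligament and healing tissue and loosens cell adhesion. It had 1104 and 1096 counts in knockouts 1 and 2, against 3883 and 6348 counts in controls 1 and 2. The levels were 56.6 and 61.4 CPM in the knockouts, against 270 and 404 CPM in the controls. Both knockouts were close together and far below the lower control. The level was 5.71-fold lower (log2 fold change -2.51, SE 0.37), with an adjusted p of 0.145 in edgeR and 1.4e-06 in DESeq2. Among the 9 genes it had the smallest unadjusted p in edgeR. Its log2 fold change stayed between -2.81 and -2.24 with any 1 library left out, and DESeq2 called it also without control 2 (-2.23, adjusted p = 0.000245). An antisense gene, 8030451A03Rik, shares 176 exonic bases with Tnc, but had 23 counts over the 4 libraries.

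Tnn (ENSMUSG00000026725, chromosome 1, 160085029 to 160153580, minus strand) encodes tenascin W, also called tenascin N, which is found in periosteum, bone and periodontal ligament. It had 454 and 2114 CPM in knockouts 1 and 2, against 510 and 2298 CPM in controls 1 and 2. Library 2 of each group was high and library 1 low, and the group means differed little (1284 ± 1174 CPM in knockouts and 1404 ± 1264 CPM in controls, SD, n = 2 each). The log2 fold change was -0.13 (SE 0.86, edgeR adjusted p = 0.964). It was positive when control 2 (1.30) or knockout 1 (0.59) was left out, and -1.63 without knockout 2.

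Postn followed Tnn, not Tnc. Postn (ENSMUSG00000027750, chromosome 3, 54361109 to 54391037, plus strand) encodes periostin, which periodontal ligament under load depends on and which takes part in collagen cross-linking. Its level was 225 and 878 CPM in knockouts 1 and 2, against 343 and 1410 CPM in controls 1 and 2. Each group held a low and a high library, and knockout 2 lay between the controls. The log2 fold change was -0.67 (SE 0.80, edgeR adjusted p = 0.741). It was 0.66 without control 2 and 0.0032 without knockout 1. Measured as the distance between profiles over the 4 libraries (the Euclidean distance of log2 CPM, centred per gene), Postn and Tnn were 0.541 apart, the smallest distance of the 36 pairs among the 9 genes. Scx and Thbs4 followed at 0.852, and Scx and Tnc at 0.876, with Mkx and Cilp farthest apart at 4.49.

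The 5 tested genes nearest to Tnn by this distance, over 4 libraries, were Gm47689 (0.215), Hist1h1t (0.231), Gdf10 (0.257), Gm6277 (0.284) and Nod2 (0.296), and Postn ranked 19 of all tested genes. Gm47689, Hist1h1t and Gm6277 had from 2 to 29 counts per library, so their order is loosely set. Gdf10, which encodes a secreted factor of the TGF-beta family, had 5.74 and 21.7 CPM in the knockouts, against 6.33 and 29.3 CPM in the controls. Like Tnn, Gdf10 was high in library 2 of each group, which follows from its choice by distance to Tnn.

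The thrombospondins also parted. Thbs4 (ENSMUSG00000021702, chromosome 13, 92751590 to 92794818, minus strand) encodes thrombospondin 4, a protein of tendon and of the junction of muscle and tendon. It had 54.0 and 50.6 CPM in the knockouts, against 104 and 286 CPM in the controls. The knockouts were level and lay below both controls, which differed from each other. The level was 3.74-fold lower (log2 fold change -1.90, SE 0.51), with an adjusted p of 0.174 in edgeR and 0.0056 in DESeq2. Without control 2 the log2 fold change was -1.05 and DESeq2 no longer called it (adjusted p = 0.201).

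Thbs2 (ENSMUSG00000023885, chromosome 17, 14665500 to 14694235, minus strand) encodes thrombospondin 2, which restrains vessel growth and shapes collagen fibrils. Its level was 408 and 838 CPM in knockouts 1 and 2, against 680 and 1448 CPM in controls 1 and 2. Library 2 was the higher one in both groups, and knockout 2 lay between the controls. The log2 fold change was -0.77 (SE 0.51, edgeR adjusted p = 0.505), and -0.16 without control 2.

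Cilp had the largest fold change of the 9 genes. Cilp (ENSMUSG00000042254, chromosome 9, 65265180 to 65280605, plus strand) encodes cartilage intermediate layer protein, a matrix protein that binds TGF-beta and restrains its signal. It had 562 and 171 counts in knockouts 1 and 2, against 1500 and 4742 counts in controls 1 and 2. In CPM this was 28.8 and 9.58 in the knockouts, against 104 and 302 in the controls. Both knockouts were low, with knockout 2 lower than knockout 1 and control 2 higher than control 1. The level was 10.6-fold lower (log2 fold change -3.40, SE 0.72), with an adjusted p of 0.158 in edgeR and 3.5e-06 in DESeq2. The log2 fold change was -4.40 without knockout 1, where edgeR called it (adjusted p = 0.0357), and -2.51 without control 2, where DESeq2 still called it (-2.49, adjusted p = 0.0042).

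The 2 control libraries differed by as much as the genotypes in part of the genes. All 9 genes were higher in control 2 than in control 1, and 7 of them by more than 2-fold, where 18.7% of all tested genes were. The median log2 ratio of control 2 over control 1 was 1.37 for the 9 genes, against 0.035 over all tested genes. Some lists described below shared this. Over 2-fold higher were 8 of 18 tested other tendon and ligament genes (median log2 ratio 0.86) and 7 of 9 odontoblast and dentin markers (1.33). Of the erythroid, leukocyte and dental epithelium markers 0 were. With 1 library on each side there is no test, and the intervals below are exact 95% intervals of the count ratio, which cover counting error only. Tnn was 4.50-fold higher in control 2 (4.39 to 4.62) and Postn 4.11-fold (3.99 to 4.24). Cilp was 2.89-fold higher (2.73 to 3.07), Thbs4 2.75-fold (2.59 to 2.92), Mkx 2.59-fold (2.37 to 2.83), Scx 2.53-fold (1.51 to 4.39) and Thbs2 2.13-fold (2.08 to 2.18). Tnc was 1.50-fold higher (1.44 to 1.56), and Tnmd at 1.07-fold (0.941 to 1.23) did not differ beyond counting error. In 4 of the 9 genes (Tnn, Postn, Thbs2 and Mkx) the log2 ratio between the controls was larger than the log2 fold change between genotypes, and in the other 5 it was smaller.

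Between the knockouts the genes went different ways. Tnn was 4.66-fold higher in knockout 2 than in knockout 1 (4.55 to 4.77), Postn 3.91-fold (3.78 to 4.04) and Thbs2 2.05-fold (2.0 to 2.11), each close to its ratio between the controls. On the log2 scale with 0.5 added counts, on which genes over 2-fold are counted here, these were the 3 of 9 genes over 2-fold higher in knockout 2, where 10.5% of all tested genes were. Cilp was the 1 gene over 2-fold lower in knockout 2 (0.333-fold, 0.279 to 0.396), where 14.5% of all tested genes were. Thbs4 stood at 0.936-fold (0.855 to 1.02), Mkx at 1.03-fold (0.975 to 1.09) and Tnc at 1.09-fold (0.998 to 1.18), whose intervals all included a ratio of 1. Tnmd was lower in knockout 2 at 0.604-fold (0.519 to 0.702), and Scx, with 13 counts in knockout 2 and 7 in knockout 1, stood at 2.03-fold without added counts (0.753 to 6.01) and at a log2 ratio of 0.97 with them, just short of the count above.

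**Figure D2:**
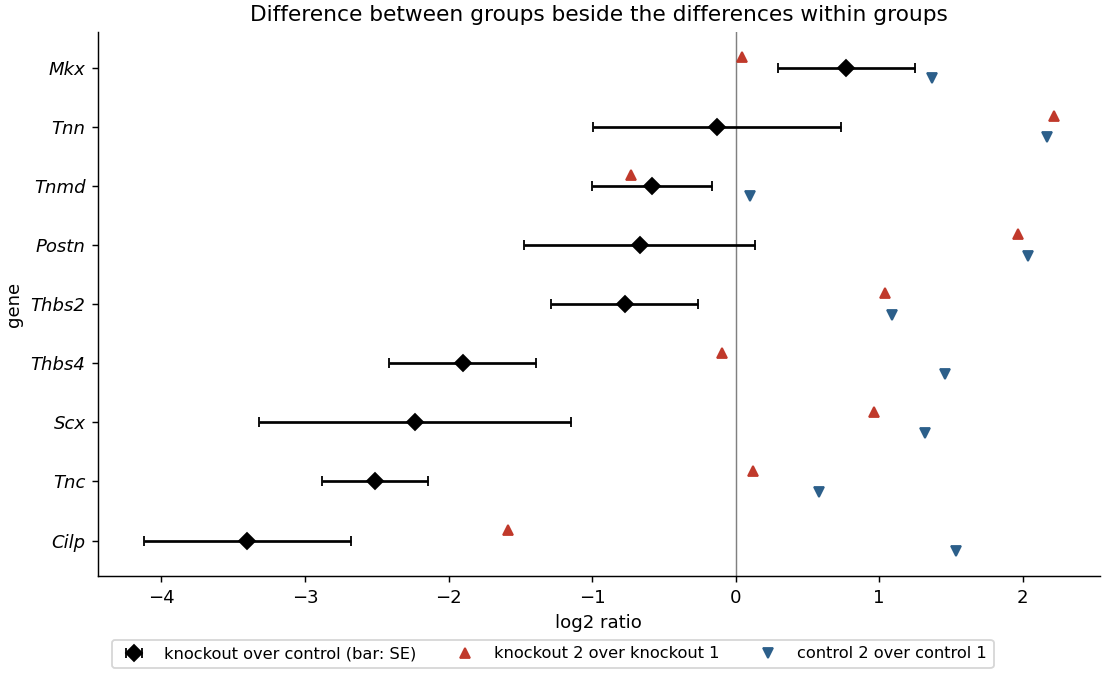
Log2 ratio (horizontal axis) of knockout over control with its SE (black diamonds, fitted by edgeR), of knockout 2 over knockout 1 (red triangles) and of control 2 over control 1 (blue triangles) for each of the 9 genes (vertical axis). In Tnn and Postn both triangles lie near 2, with the diamond at -0.13 and -0.67, whereas in Tnc and Cilp the diamond, at -2.51 and -3.40, is farther from 0 than either triangle.

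Leaving out 1 library at a time moved the 9 genes unequally. Both knockouts, or the 1 that was kept, lay below the controls in 5 genes without control 2 and without knockout 1, and in 8 genes without control 1 and without knockout 2. Leaving out a library can only keep or raise this count, so it does not measure how stable the pattern is. No share over all tested genes was computed for these settings. The direction of Tnc, Cilp, Thbs4, Scx, Tnmd, Thbs2 and Mkx held with each library left out in turn, and that of Postn and Tnn did not.

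**Figure D3:**
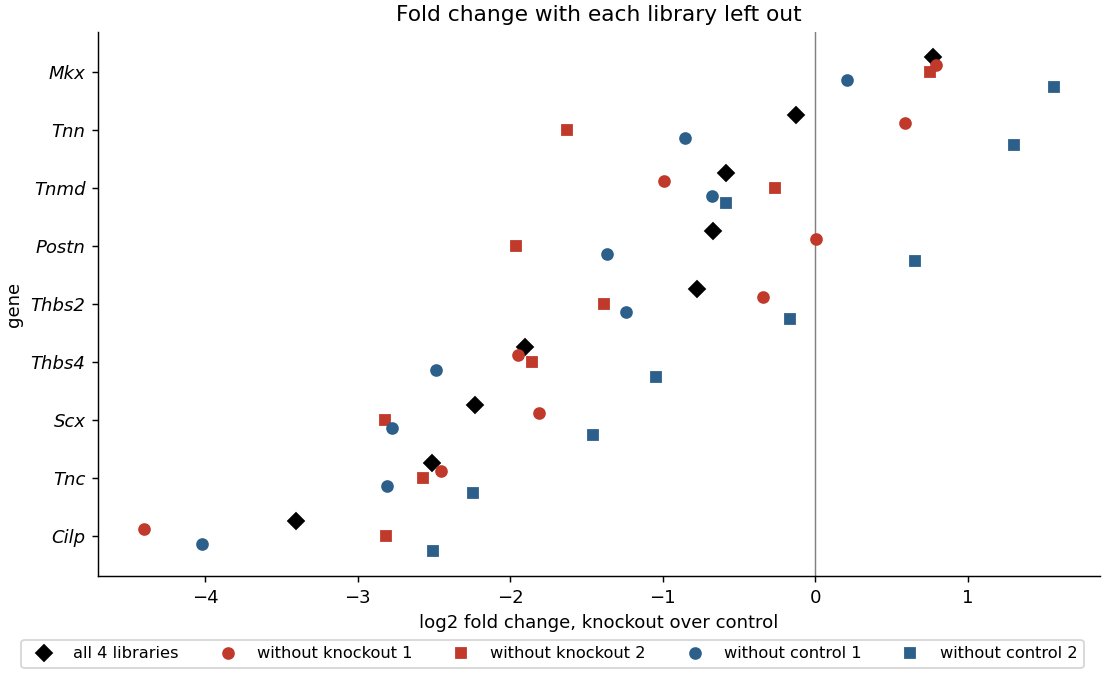
Log2 fold change of knockout over control (horizontal axis) of each gene (vertical axis) in edgeR with all 4 libraries (black) and with knockout 1, knockout 2, control 1 or control 2 left out. Tnc stayed between -2.81 and -2.24, whereas Tnn ranged from -1.63 to 1.30 and Postn from -1.96 to 0.66.

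Levels can be compared between genes only per exon length, given here as CPM per kilobase of exon in the annotation. The length covers the exons of all annotated transcripts of a gene, used here or not. A gene with long unused exons would thus read low, and the orders below depend on this length. In the knockouts the order was Tnn (221 ± 202, SD, n = 2), Thbs2 (89.0 ± 43.4), Postn (63.4 ± 53.1), Mkx (35.5 ± 0.72), Thbs4 (15.9 ± 0.75), Tnmd (15.0 ± 5.24), Tnc (7.59 ± 0.44), Cilp (4.51 ± 3.20) and Scx (0.271 ± 0.13). In the controls it was Tnn (241 ± 217), Thbs2 (152 ± 77.6), Postn (101 ± 86.7), Thbs4 (59.4 ± 39.2), Cilp (47.8 ± 32.8), Tnc (43.4 ± 12.2), Tnmd (22.5 ± 1.13), Mkx (20.8 ± 13.0) and Scx (1.28 ± 0.79). The 3 leading genes were the same in both groups, and Scx was last in both. Mkx was above Thbs4, Cilp, Tnc and Tnmd in the knockouts and below them in the controls by the means. Neighbours in these orders mostly overlapped between libraries: in the knockouts the exceptions were Mkx over Thbs4, Tnmd over Tnc, Tnc over Cilp and Cilp over Scx, and in the controls Tnc over Tnmd and Mkx over Scx.

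**Figure D4:**
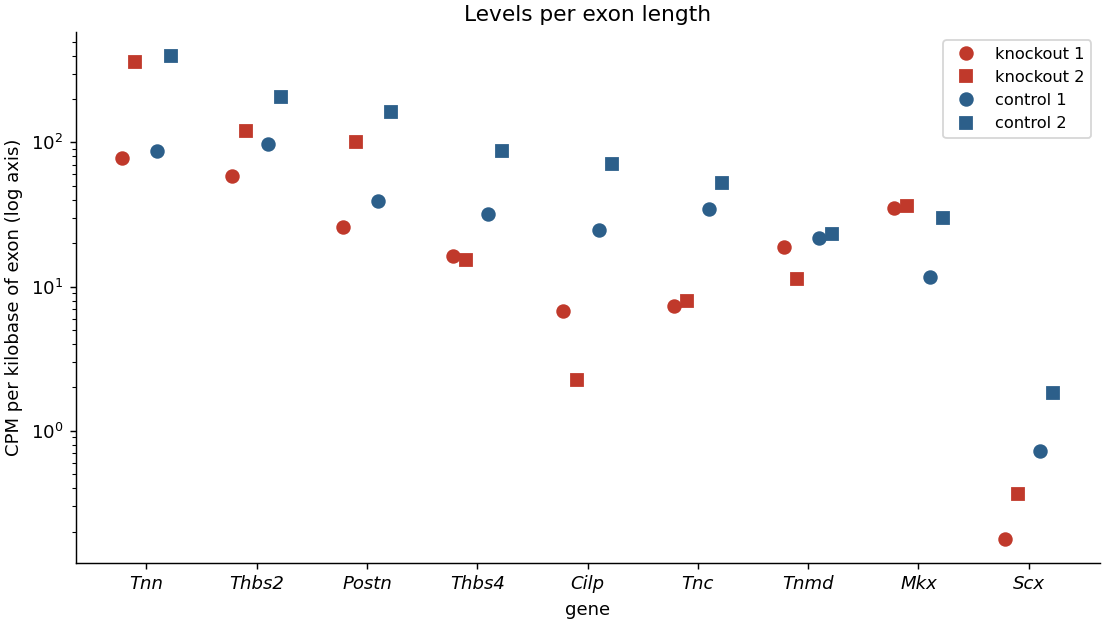
CPM per kilobase of exon (vertical log axis) of each gene (horizontal axis, by mean control level) in the knockout libraries (red) and the control libraries (blue). Tnn, Thbs2 and Postn lead in both groups, Scx lies lowest, and the knockouts lie farthest below the controls in Cilp and Tnc.

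Other genes of tendon and ligament, from a list of 19, went in both directions. Of the 18 tested, 5 lay below and 4 above the controls without overlap, near the shares over all tested genes, and the median log2 fold change was -0.51. edgeR called 0 of them, and DESeq2 called 3 lower and 2 higher, where it called 5.69% and 2.72% of all its genes. Fmod, which encodes fibromodulin, a proteoglycan that sets collagen fibril width, had 2221 and 2352 CPM in the knockouts, against 581 and 634 CPM in the controls (log2 fold change 1.91, adjusted p of 0.150 in edgeR and 0.000111 in DESeq2). Lum, which encodes the related lumican, had 3965 and 4724 CPM in the knockouts, against 1036 and 1879 CPM in the controls (DESeq2 adjusted p = 0.0086). Both were thus higher where Tnc and Cilp were lower. Kera, which encodes keratocan of the same family, was lower, with 2.72 and 0.897 CPM in the knockouts, against 10.2 and 18.4 CPM in the controls (DESeq2 adjusted p = 0.0017). Col14a1, which encodes a collagen on the fibril surface, had 14.7 and 6.84 CPM in the knockouts, against 47.3 and 115 CPM in the controls (DESeq2 adjusted p = 2.9e-05).

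Of 9 relatives of these genes by sequence, 2 lay below and 1 above the controls without overlap, beside 24.9% and 25.8% of all tested genes. Their median log2 fold change was 0.18, and a difference from the 9 genes was not tested. Like the 9 genes they were mostly higher in control 2 than in control 1, with a median log2 ratio of 1.87. Over 2-fold higher were 5 of 9, where 18.7% of all tested genes were. Among these 5, Tnr and Tcf15 had 1 count each in control 1, so their ratios are loosely set. Tgfbi, the relative of Postn, had 1225 and 1674 CPM in the knockouts, against 282 and 242 CPM in the controls (log2 fold change 2.47, adjusted p of 0.145 in edgeR and 1.5e-06 in DESeq2). Its controls were level, unlike those of Postn. Cilp2, the relative of Cilp, had 5.64 and 1.35 CPM in the knockouts, against 10.2 and 50.1 CPM in the controls, and was highest in control 2 as Cilp was. Tnxb, which encodes tenascin X, had 4.00 and 3.14 CPM in the knockouts, against 9.25 and 40.8 CPM in the controls. DESeq2 called both lower (adjusted p = 0.0023 and 0.0021).

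Genes of the signals that drive the tendon program (TGF-beta, GDF and FGF) were mostly without a call. Of 13 tested, 4 lay above and 2 below the controls without overlap, beside 25.8% and 24.9% of all tested genes. The median log2 fold change was 0.10. DESeq2 called 1 higher, Fgfr1, where it called 2.72% of all its genes higher. This FGF receptor gene had 228 and 759 CPM in the knockouts, against 86.9 and 136 CPM in the controls (log2 fold change 2.15, adjusted p of 0.176 in edgeR and 0.0035 in DESeq2). Tgfb2, a ligand that induces Scx in mouse limb buds, had 333 and 333 CPM in the knockouts, against 88.1 and 182 CPM in the controls (log2 fold change 1.30, DESeq2 adjusted p = 0.0567, which did not pass). Gtf2ird1, a nuclear factor of tendon cells under load, had 36.0 and 46.5 CPM in the knockouts, against 16.0 and 27.1 CPM in the controls, and did not pass. Gdf5, which encodes a growth factor of joints and tendon, was barely detected, with 0.461 and 0.168 CPM in the knockouts, against 1.88 and 0.955 CPM in the controls.

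Of 14 genes of receptors for the encoded matrix proteins, 5 lay below and 2 above the controls without overlap. The shares over all tested genes were 24.9% and 25.8%, and the median log2 fold change of the 14 was -0.76. DESeq2 called 1 lower, where it called 5.69% of all its genes lower. This was Itga9, whose product is an integrin chain that binds tenascin C. Itga9 had 2.97 and 2.35 CPM in the knockouts, against 16.6 and 9.17 CPM in the controls (log2 fold change -2.27, adjusted p of 0.174 in edgeR and 0.0135 in DESeq2). Itgb3, the beta chain of an integrin that binds periostin, had 6.61 and 7.06 CPM in the knockouts, against 19.5 and 16.5 CPM in the controls, and did not pass (DESeq2 adjusted p = 0.0982). Itgb1, the common beta chain, had 591 and 940 CPM in the knockouts, against 244 and 554 CPM in the controls, and Egfr 9.89 and 3.31 CPM in the knockouts, against 10.8 and 31.1 CPM in the controls. Neither passed.

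Among 16 genes of matrix partners and proteases, 2 lay below and 2 above the controls without overlap, beside 24.9% and 25.8% of all tested genes. Neither tool called any. Col1a2, a chain of the main fibre collagen, had 1563 and 2482 CPM in the knockouts, against 2556 and 5599 CPM in the controls. Ccn2, a growth factor of tendon fibroblasts, had 50.8 and 43.3 CPM in the knockouts, against 56.9 and 115 CPM in the controls. Bmp1, the protease that trims procollagen, had 147 and 261 CPM in the knockouts, against 108 and 143 CPM in the controls, and Ccn1 589 and 596 CPM in the knockouts, against 467 and 374 CPM in the controls. In this list 11 genes were over 2-fold higher in control 2 than in control 1, where 18.7% of all tested genes were. In knockout 2 over knockout 1 there were 5 such genes, where 10.5% of all tested genes were. Tnn, Postn and Thbs2 were over 2-fold higher in both comparisons.

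Markers of other cells moved between the same libraries. Beside the lower level of Tnc, Cilp and Thbs4 in the knockouts, all 8 erythroid markers, 7 of 8 tested leukocyte markers, 4 of 7 tested Schwann cell markers, 4 of 8 endothelial markers and 3 of 5 tested skeletal muscle markers lay below the controls without overlap, and 1 Schwann cell marker above. Over all tested genes, 24.9% lay below and 25.8% above the controls without overlap. Summed over each list, erythroid markers had 86.7 and 105 CPM in the knockouts, against 427 and 407 CPM in the controls. Leukocyte markers had 362 and 147 CPM in the knockouts, against 2389 and 832 CPM in the controls, with Cd3e at 0 throughout. Schwann cell markers had 127 and 149 CPM in the knockouts, against 390 and 553 CPM in the controls, and endothelial markers 531 and 474 CPM in the knockouts, against 636 and 1008 CPM in the controls.

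Skeletal muscle, the tissue next to tendon, gave low sums, with 8.20 and 9.08 CPM in the knockouts, against 17.7 and 69.9 CPM in the controls. Its defining factor Myog had 36 and 0 counts in the knockouts, against 0 and 404 counts in the controls. The sum was highest in control 2, as were 8 of the 9 genes (all but Mkx). Most of it there was Des (29.6 CPM) and Myog (25.7 CPM), whereas Acta1 was lower in control 2 (4.77 CPM) than in control 1 (6.81 CPM). Beside Tnn, Postn and Thbs2, the summed odontoblast and dentin markers were higher in library 2 of each group, with 15566 and 26849 CPM in the knockouts, against 18631 and 42090 CPM in the controls. Most of this sum was Col1a1, a collagen gene of bone, ligament and tendon too, with 14440 and 24543 CPM in the knockouts, against 17241 and 38663 CPM in the controls. The dentin gene Dspp differed, with 23.5 and 0.729 CPM in knockouts 1 and 2, against 26.2 and 244 CPM in controls 1 and 2, and Alpl was lower in control 2 (575 CPM) than in control 1 (762 CPM). The summed pericyte and smooth muscle markers were also higher in library 2 of each group, with 568 and 1404 CPM in the knockouts, against 839 and 1460 CPM in the controls. So were the Schwann cell and skeletal muscle sums given above, by little in the knockouts. Summed markers of dental mesenchyme and pulp were higher in the knockouts, with 3938 and 3511 CPM, against 1337 and 1629 CPM in the controls. So were summed chondrocyte markers, with 1579 and 2052 CPM in the knockouts, against 756 and 479 CPM in the controls. Most of the chondrocyte sum was Col9a2 and Sox9, and not all its genes were higher. Col2a1 was lower, with 13.9 and 14.8 CPM in the knockouts, against 17.9 and 36.4 CPM in the controls. Matn1, not tested, had 0 and 0 counts in the knockouts, against 9 and 10 counts in the controls, and in Acan the groups overlapped. Dental epithelium markers, most of it Ambn, had 34562 and 41534 CPM in the knockouts, against 62031 and 22369 CPM in the controls. Genes of the dental follicle and bone side had 444 and 413 CPM in the knockouts, against 276 and 306 CPM in the controls. Without overlap, pericyte and smooth muscle markers lay below the controls in 2 of 8 genes, dental epithelium markers in 5 of 8, and odontoblast and dentin markers in 4 of 9 with 1 above. Dental mesenchyme and pulp markers lay above the controls in 6 of 10 with 2 below, follicle and bone side markers in 3 of 8 and chondrocyte markers in 4 of 6 tested with 1 below. The shares over all tested genes were 24.9% below and 25.8% above, so a count near them is no trait of its list. The part of these cell types in the levels of the 9 genes was not tested.

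**Figure D5:**
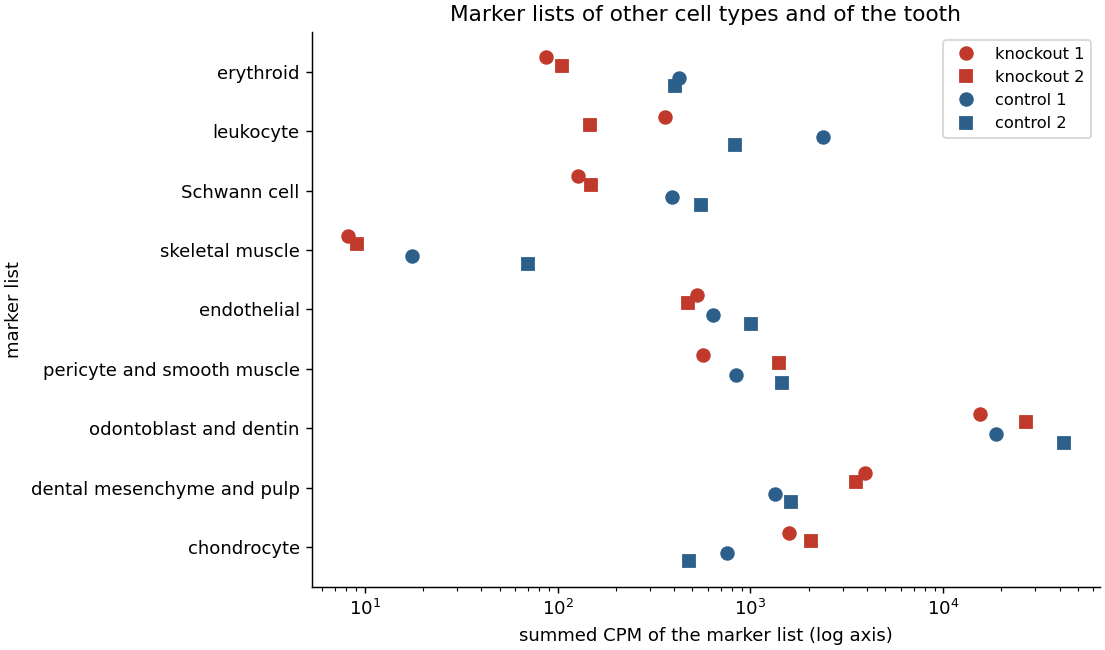
Summed CPM (horizontal log axis) of marker lists (vertical axis) in the knockout libraries (red) and the control libraries (blue). Erythroid, leukocyte, Schwann cell, skeletal muscle and endothelial sums of each knockout lie below those of each control. Odontoblast and pericyte sums are higher in library 2 (squares) of each group. So are Schwann cell and skeletal muscle sums, by little in the knockouts.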

How the data were processed

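Polyadenylated RNA of 4 libraries was reverse transcribed with oligo-dT and template switching, amplified by PCR and cut with a transposase kit, per the labels' protocols. Such libraries mark neither strand nor molecules. The deposited values are raw counts per Ensembl gene ID in 1 table, made by the authors with Trim Galore 0.6.6, Bowtie2 2.3.5.1 and featureCounts 2.0.1 on GRCm38, per the submitters' processing notes; for the annotation release and the handling of multi-mapped reads the sources used here give nothing. Columns were matched to samples by name.

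Symbols, positions and exon lengths came from GENCODE M21 (GRCm38), in which 55227 of 55487 IDs were found. edgeR 4.0.16 (R 4.3.3) was fitted on all 17128 genes kept by filterByExpr, with TMM scaling and genotype as the only term. Its quasi-likelihood F-test was two-sided with Benjamini-Hochberg adjustment over all genes at 0.05. An SE is the absolute log2 fold change divided by the square root of F. The scripts were tested on simulated data with less spread between libraries than these data have, so that test does not show their power here. Alternative fits used limma 3.58.1 (voom) and DESeq2 1.42.0. Ratios between libraries of a group used 0.5 added counts on the log2 scale. A gene that is lower or higher in both knockouts lies outside the range of both controls.

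Named from each list were at most 4 genes, those with the smallest p in edgeR among genes whose groups did not overlap, and the 5 genes nearest to the most abundant of the 9 per exon length. The 9 genes, the lists and the tests were chosen with earlier results of these data known, so no count over them is independent evidence.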

Additional observations from a re-analysis of the deposited data

How the results depend on the processing

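With scaling by DESeq2's size factors or by library totals only, with a stricter low-count filter (a minimum count of 50, which left out Scx) and in limma-voom, edgeR's or limma's count of called genes was 0 in both directions, as with the settings of the report. Without the low-count filter edgeR called 449 genes higher and 1005 lower, 3 of the 9 genes among them (Tnc, Cilp and Thbs4). In that fit the prior degrees of freedom were infinite, so a gene's own spread did not enter its p. DESeq2 called 472 higher and 989 lower, 3 of the 9 among the lower ones. DESeq2 without control 2, chosen after seeing the data, called 737 higher and 911 lower, with 1 of the 9 higher (Mkx) and 2 lower (Tnc and Cilp), and gave Postn at 0.67 and Tnn at 1.32, above 0. With 1 library left out, edgeR called 0 to 55 genes higher and 0 to 230 lower, both highest without knockout 1, with 0 to 1 of the 9 lower (Cilp). The count of the 9 genes below the controls, which can only stay or rise when a library is left out, was 5 to 8. Their median log2 fold change ranged from -1.85 without knockout 2 to -0.59 without control 2. Postn ranged from -1.96 to 0.66 and Tnn from -1.63 to 1.30. Causes of these differences were not tested.

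The labels give both groups replicate numbers 1 and 2 without saying that they pair libraries. Deviations of same-numbered libraries from their group means correlated at 0.106 over tested genes. With the replicate block edgeR called 59 genes higher and 185 lower, 1 of the 9 among them (Tnc, adjusted p = 0.0401). The median log2 ratio of control 2 over control 1 was 1.33 to 1.48 under the other scalings and 1.37 with 2 added counts. With 2 libraries a group, the 0.359 to 3.69 CPM of Scx leave its fold change loosely set.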
